A study of Mus musculus with 7 samples.

Results

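The circadian clock genes described here are 10 genes, Per1, Per2, Per3, Ciart, Dbp, Tef, Nr1d1, Nr1d2, Arntl and Clock, taken by symbol with every probe that the platform annotation assigns to them. They were read by 19 of the 25697 probes on the array, out of 16593 named genes, and the older symbol Bmal1 stands for Arntl. The arrays held RNA from whole lungs of male mice aged 3 to 4 months on a mixed background of 129S6/SvEvTac, C57BL/6J and Balb/c. Claudin-18 knockout mice (3 arrays) carried a floxed claudin-18 allele that had been recombined throughout the body by CMV-cre, which takes out exons 2 and 3, and wild-type mice (4 arrays) were the comparison. All 7 arrays lay on 1 slide, with the knockout arrays on one stretch of it and the wild-type arrays on the next, so place on the slide and genotype cannot be told apart. The labels number the arrays as replicates and do not tie each to its own mouse, so p-values here rest on the spread between arrays, which may be technical. The extraction protocol speaks of 4 replicates of each genotype, while the sample titles list 3 knockout arrays, all of which were analysed here. No hour of tissue collection is given in the sources used here.

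The mammalian clock is a feedback loop of transcription. CLOCK and BMAL1, the product of Arntl, bind E-box sequences and switch on the Per and Cry genes, whose proteins return to the nucleus and shut CLOCK and BMAL1 down. The same pair switches on Nr1d1 and Nr1d2, which encode the nuclear receptors REV-ERB alpha and beta that repress Arntl, as well as Ciart, whose product CHRONO also represses BMAL1, and Dbp and Tef, PAR-bZIP factors that drive D-box genes. In mouse lung and other peripheral tissues the targets of CLOCK and BMAL1 peak during the day and around dusk, and Arntl, with a shallower rhythm of Clock, peaks late in the night. The members were therefore read in 3 groups by the known time of their peak: Nr1d1, Nr1d2, Dbp and Ciart from midday to afternoon, Per1, Per2, Per3 and Tef around dusk, and Arntl and Clock from late night to dawn.

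Promoter sequences from RefSeq on build GRCm38.p6, each running from 250 bases before to 50 bases after a transcript start, were found for 9 of the 10 genes in 14 windows, some of which overlap. The gene without one was Per2, so its promoter was not searched. Both strands were searched for the E-box CACGTG, its variant CACGTT, the D-boxes TTATGTAA and TTACGTAA, the ROR elements (A, any 2 bases, then TAGGTCA or TGGGTCA) through which ROR receptors activate and REV-ERB receptors repress, and the cyclic AMP element TGACGTCA. The E-box CACGTG was present in 4 of the 14 windows, from Ciart, Per1 and Tef, and in 7.15% of all 32851 promoters in the table. Ciart held it 3 times, at 116, 58 and 44 bases before the start. The ROR element ending in TAGGTCA was present in 1 Arntl window, 27 bases after the start, and in 0.7% of all promoters. Per3 held the D-box TTATGTAA at 205 and at 158 bases before the start (0.938% of all promoters), and Nr1d1 held the E-box variant at 28 bases before it (4.68%). The forms TTACGTAA (0.119% of all promoters), the ROR element ending in TGGGTCA (0.913%) and TGACGTCA (1.79%) were in 0 of the 14 windows. The 4 windows with an E-box and the Arntl window with the ROR element are printed 5′ to 3′ with the match in capitals, because they hold the elements counted above, and the second windows of Per1 and Arntl held no match.
Ciart, chr3:95882179-95882478, minus strand: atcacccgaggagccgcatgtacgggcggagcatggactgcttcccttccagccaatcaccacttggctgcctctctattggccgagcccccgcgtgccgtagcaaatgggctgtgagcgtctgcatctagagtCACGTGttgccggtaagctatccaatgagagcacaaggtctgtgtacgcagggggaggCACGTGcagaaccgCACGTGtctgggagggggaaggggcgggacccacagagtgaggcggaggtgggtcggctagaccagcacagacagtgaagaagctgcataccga
Tef, chr15:81802423-81802722, plus strand: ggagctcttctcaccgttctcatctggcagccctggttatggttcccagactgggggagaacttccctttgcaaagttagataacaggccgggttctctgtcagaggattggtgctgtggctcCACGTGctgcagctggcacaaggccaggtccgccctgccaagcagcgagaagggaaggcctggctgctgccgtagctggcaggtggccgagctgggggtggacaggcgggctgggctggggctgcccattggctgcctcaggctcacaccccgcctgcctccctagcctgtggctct
Tef, chr15:81811164-81811463, plus strand: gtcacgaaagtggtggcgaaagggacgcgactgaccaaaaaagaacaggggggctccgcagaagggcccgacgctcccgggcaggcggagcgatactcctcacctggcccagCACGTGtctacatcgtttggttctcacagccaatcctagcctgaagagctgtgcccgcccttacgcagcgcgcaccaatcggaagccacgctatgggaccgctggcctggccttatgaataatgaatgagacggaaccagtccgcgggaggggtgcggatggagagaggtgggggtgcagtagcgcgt
Per1, chr11:69098699-69098998, plus strand: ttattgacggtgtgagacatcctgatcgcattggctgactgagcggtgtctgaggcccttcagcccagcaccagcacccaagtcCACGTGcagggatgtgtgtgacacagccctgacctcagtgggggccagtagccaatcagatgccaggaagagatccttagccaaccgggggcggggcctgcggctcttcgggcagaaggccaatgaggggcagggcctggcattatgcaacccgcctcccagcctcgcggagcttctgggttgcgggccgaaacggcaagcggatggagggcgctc
Arntl, chr7:113207261-113207560, plus strand: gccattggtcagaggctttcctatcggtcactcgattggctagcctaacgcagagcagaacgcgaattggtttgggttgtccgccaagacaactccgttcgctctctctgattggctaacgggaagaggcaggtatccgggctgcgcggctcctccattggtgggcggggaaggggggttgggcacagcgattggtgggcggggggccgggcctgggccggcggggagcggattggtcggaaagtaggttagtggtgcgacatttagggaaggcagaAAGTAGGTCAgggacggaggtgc
A match describes the letters in these windows and is not a measure of binding.

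The arrays are Illumina MouseRef-8 v2 bead arrays, and levels are log2 values after background correction and quantile normalization. Between 10291 and 11715 probes were detected (detection p under 0.01) on the knockout arrays and between 11211 and 12376 on the wild-type arrays, and the median signal ran from 259 to 349 and from 355 to 468. The knockout arrays were thus dimmer as deposited. Cldn18 itself fell by 3.71 on the log2 scale (SE 0.19, limma adjusted p = 4.2e-05), with 3 knockout arrays below 4 wild-type arrays. The lung markers Sftpc, of type 2 cells, and Scgb1a1, of club cells, were detected on all 7 arrays. Of 11902 probes tested, 8.87% passed an adjusted p of 0.05 (Benjamini-Hochberg over all of them), 3.97% higher and 4.91% lower in the knockout (472 and 584 probes). With each array scaled to its median instead, 217 were higher and 726 lower, and the median log2 change of all probes was -0.14.

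Per2 and Ciart, both repressors of CLOCK and BMAL1, passed the threshold higher in the knockout, each by 1 of 2 tested probes. No clock gene probe passed lower. The call of Per2 ILMN_2987862 held under all 16 alternatives, and that of Ciart ILMN_3029489 was lost under 8 of 16. Of the 19 probes, 15 were detected on at least 3 arrays and were tested, covering 9 genes. Of these, 2 passed higher (13.3%, beside 3.97% of all probes tested) and 0 passed lower, with 6 higher and 1 lower at an unadjusted p under 0.05 (25.8% of all probes in either direction, 12.4% higher). The groups did not overlap for 5 of the 15 probes (33.3%), all higher in the knockout, against 25.7% of all probes in either direction and 13.3% higher. The median log2 change was 0.19 over the 15 probes and 0.018 over all probes. The count of 2 became 1 without knockout 1, 2 or 3 or wild type 1, 2 or 3, and 4 without wild type 4. It became 1 with no filter on dim probes, 4 with no background correction or an offset of 50, and 5 with the variance trend, with array weights or with only the probes detected on all 7 arrays.

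**Figure D1:**
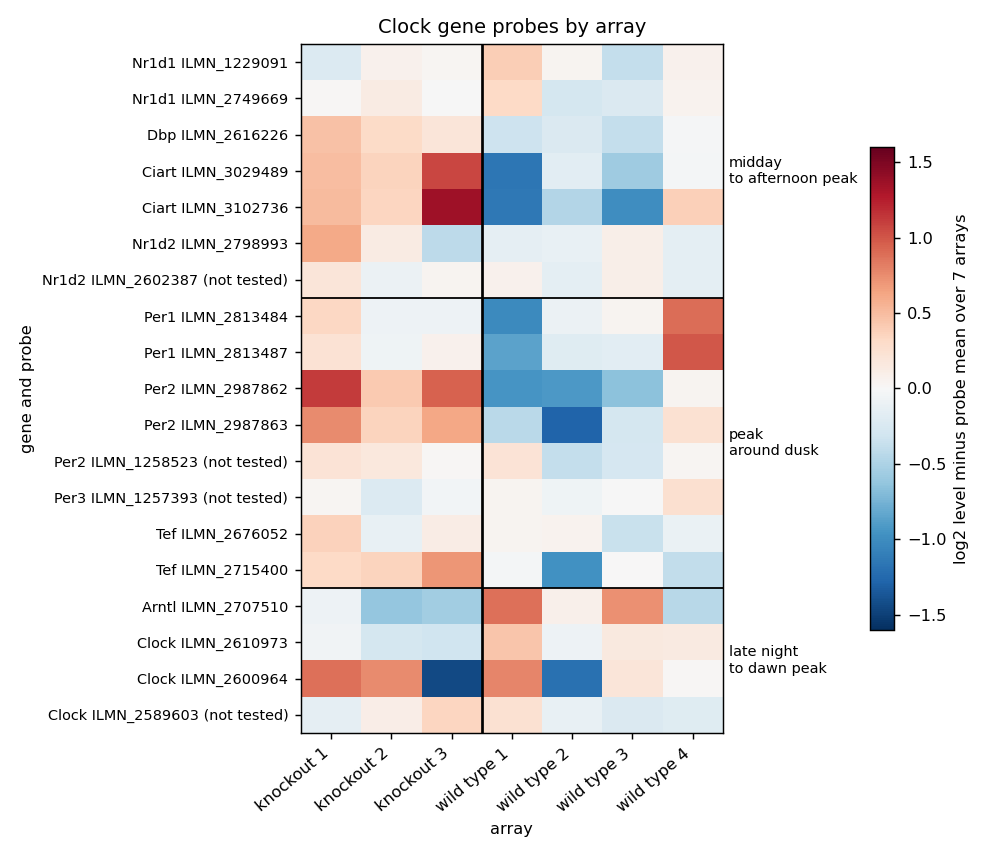
Heat map of the 19 clock gene probes (rows, grouped by the known time of peak) on the 3 knockout and 4 wild-type arrays (columns), coloured by the log2 level minus the probe's mean over the 7 arrays. Both detected Per2 probes and the Ciart probe ILMN_3029489 are redder on every knockout array than on any wild-type array, and wild type 1 and wild type 4 stand at opposite ends of the wild-type arrays for Per1, Ciart and Arntl.

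Per2 (chromosome 1, 91415977 to 91459351 in RefSeq on GRCm38.p6, as for the positions of the other genes) encodes a PER protein of the repressor complex and is induced by CLOCK and BMAL1. Its probe ILMN_2987862 stood at 10.60, 9.91 and 10.43 on knockout arrays 1 to 3, against 8.53, 8.57, 8.83 and 9.52 on wild-type arrays 1 to 4. Every knockout array lay above every wild-type array. Knockout arrays averaged 10.31 ± 0.36 (SD, n = 3), against 8.86 ± 0.46 (SD, n = 4) for wild-type arrays. The log2 change was 1.45 (SE 0.27, 95% interval 0.84 to 2.05, limma adjusted p = 0.0123), or 2.73-fold. It stayed past the threshold under all 16 alternatives, with an adjusted p between 0.00147 and 0.0457. Its size was smaller with the authors' values (0.90), as it was for Ciart ILMN_3029489 (0.47), Ciart ILMN_3102736 (0.53), Per2 ILMN_2987863 (0.52) and Tef ILMN_2715400 (0.25), in each case in the same direction. In the signals as deposited, which carry the difference in brightness between arrays, this probe read 2028, 794 and 1026 in the knockout and 876, 636, 830 and 1207 in the wild type, so the groups overlapped before normalization.

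A second Per2 probe, ILMN_2987863, had levels of 9.76, 9.36 and 9.62 in the knockout, against 8.57, 7.72, 8.72 and 9.25 in the wild type. The groups again did not overlap, with wild type 4 nearest the knockout. Its log2 change of 1.01 (SE 0.31, 95% interval 0.32 to 1.71) missed the threshold (limma adjusted p = 0.0741). Without wild type 4 it was 1.24 and passed (adjusted p = 0.0368). It passed with no background correction, with the variance trend, with array weights, with the replicate number as a block and over probes detected on all 7 arrays too. The third probe, ILMN_1258523, was not well above background on any array, so it gives no reading of Per2.

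Per1 (chromosome 11, 69095108 to 69109965), the other detected Per gene, showed no such shift. Probe ILMN_2813484 stood at 11.05, 10.63 and 10.64 in the knockout, against 9.70, 10.63, 10.76 and 11.61 in the wild type. The wild-type arrays spread on both sides of the knockout, with wild type 1 lowest and wild type 4 highest. The log2 change was 0.10 (SE 0.37, 95% interval -0.73 to 0.93, limma adjusted p = 0.891). The other probe, ILMN_2813487, gave 0.13 (95% interval -0.68 to 0.93, adjusted p = 0.852) with the same lowest and highest arrays. Per1 also answers to glucocorticoid and cyclic AMP outside the clock loop.

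Per3 (chromosome 4, 150997018 to 151044707), a PER protein with a minor part in the loop, was read by 1 probe, ILMN_1257393. Its level ran from 5.05 to 5.30 in the knockout and from 5.20 to 5.53 in the wild type. It was not well above background on any array and was not tested.

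Tef (chromosome 15, 81802673 to 81826863) was read by probes that the annotation ties to different transcripts. Probe ILMN_2715400 stood at 8.05, 8.09 and 8.43 in the knockout, against 7.69, 6.76, 7.73 and 7.34 in the wild type. The groups did not overlap, although wild type 2 was not detected and lay well below the others. The log2 change was 0.81 (SE 0.25, 95% interval 0.26 to 1.37), short of the threshold (limma adjusted p = 0.0734), as it was under all 15 alternatives that kept the probe, where the adjusted p was between 0.0517 and 0.216. Probe ILMN_2676052 ran from 9.19 to 9.68 in the knockout and from 8.95 to 9.36 in the wild type. These ranges overlapped, and its log2 change was 0.21 (95% interval -0.19 to 0.62, adjusted p = 0.498). The difference between the probes was not tested.

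Ciart (chromosome 3, 95878500 to 95882257) belongs to the afternoon group. Its probe ILMN_3029489 stood at 8.88, 8.74 and 9.46 in the knockout, against 7.23, 8.22, 7.82 and 8.36 in the wild type. Every knockout array lay above every wild-type array, with knockout 3 highest and wild type 1 lowest. Knockout arrays averaged 9.03 ± 0.38 (SD, n = 3), against 7.91 ± 0.50 (SD, n = 4) for wild-type arrays. The log2 change was 1.12 (SE 0.29, 95% interval 0.48 to 1.76, limma adjusted p = 0.0418), or 2.17-fold. The call was lost under 8 of 16 alternatives: without each of the arrays other than wild type 4, with no filter and with the replicate block, with a highest adjusted p of 0.137 without knockout 3.

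The other Ciart probe, ILMN_3102736, read 8.82, 8.66 and 9.67 in the knockout, against 7.17, 7.85, 7.33 and 8.70 in the wild type. Wild type 4 lay just above knockout 2, so the groups overlapped. The log2 change of 1.29 (SE 0.37, 95% interval 0.45 to 2.13) was no smaller than that of the first probe but did not pass (limma adjusted p = 0.0617). Without wild type 4 it was 1.603 (adjusted p = 0.0216). As deposited, the signals of ILMN_3029489 were 786, 464 and 648 in the knockout and 556, 558, 541 and 740 in the wild type, and overlapped.

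**Figure D2:**
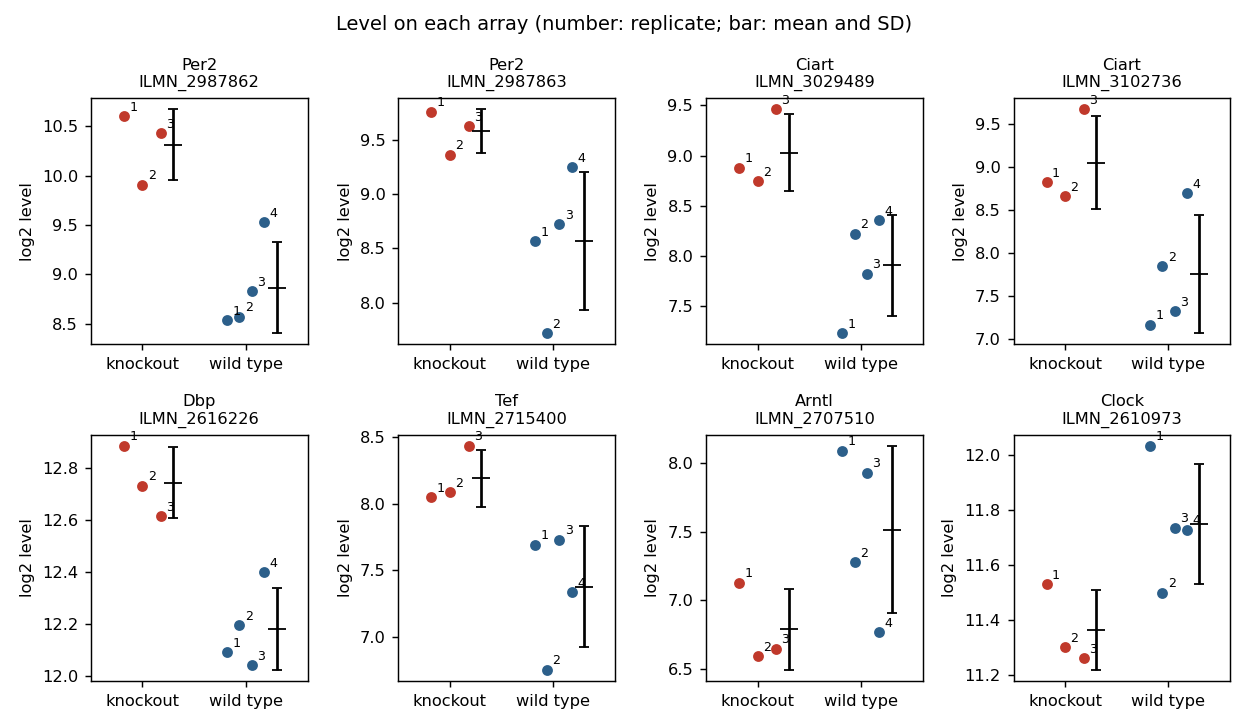
Log2 level of 8 probes of Per2, Ciart, Dbp, Tef, Arntl and Clock on each knockout array (left) and wild-type array (right), with the replicate number beside each point and the mean and SD as a bar. Levels of Per2 ILMN_2987862 lie between 9.91 and 10.60 in the knockout, above the 8.53 to 9.52 of the wild type, and each panel has its own axis.

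Dbp (chromosome 7, 45705100 to 45710203) is among the most rhythmic transcripts of peripheral tissues. Its only probe, ILMN_2616226, stood at 12.89, 12.73 and 12.62 in the knockout, against 12.09, 12.19, 12.04 and 12.40 in the wild type. All 3 knockout arrays lay above all 4 wild-type arrays. The log2 change was 0.56 (SE 0.16, 95% interval 0.20 to 0.92, 1.48-fold) and missed the threshold (limma adjusted p = 0.059). It passed under 6 of 16 alternatives, including the authors' values (0.56, adjusted p = 0.0155), and gave an adjusted p of 0.255 with median scaling. The deposited signals, 9222, 4498 and 3989 in the knockout and 6062, 4653, 5534 and 6535 in the wild type, overlapped.

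The REV-ERB genes gave no call. Nr1d1 (chromosome 11, 98767932 to 98775377) stood at 9.77, 10.06 and 10.02 in the knockout by probe ILMN_1229091, against 10.38, 10.03, 9.62 and 10.06 in the wild type. The knockout arrays fell inside the wild-type range, and the log2 change was -0.07 (SE 0.20, 95% interval -0.52 to 0.37, limma adjusted p = 0.849). Probe ILMN_2749669 gave 0.08 (95% interval -0.33 to 0.49, adjusted p = 0.819). For Nr1d2 (chromosome 14, 18204056 to 18239106), probe ILMN_2798993 stood at 9.55, 9.08 and 8.53 in the knockout, against 8.80, 8.83, 9.04 and 8.79 in the wild type. The knockout arrays spread over both sides of the tight wild-type values, and the log2 change was 0.19 (95% interval -0.33 to 0.70, adjusted p = 0.643). Its other probe, ILMN_2602387, was detected on 0 arrays.

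The late-night pair lay on the other side of zero for 2 of 3 tested probes, and none passed. Arntl (chromosome 7, 113178471 to 113314126) stood at 7.13, 6.59 and 6.65 in the knockout by its only probe, ILMN_2707510, against 8.09, 7.28, 7.93 and 6.77 in the wild type. Wild type 4 sat among the knockout arrays. It was above background on 1 array of the knockout and on 3 of the wild type, so its log2 change of -0.73 (SE 0.31, 95% interval -1.43 to -0.03, limma adjusted p = 0.177) includes levels not above background. Without wild type 4 it was -0.98 (adjusted p = 0.0585), and with the authors' values -0.18.

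Clock (chromosome 5, 76209868 to 76305603) was best read by ILMN_2610973, at 11.53, 11.30 and 11.26 in the knockout, against 12.03, 11.50, 11.73 and 11.73 in the wild type. Only knockout 1 and wild type 2 crossed, and the log2 change was -0.38 (SE 0.17, 95% interval -0.77 to 0.004, limma adjusted p = 0.198). Probe ILMN_2600964 was above background on 2 arrays of the knockout and 3 of the wild type, and scattered from 6.21 to 8.53 in the knockout and from 6.45 to 8.44 in the wild type. Its log2 change of 0.11 had an interval of -1.22 to 1.43 (adjusted p = 0.93). Probe ILMN_2589603 was not well above background on any array.

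**Figure D3:**
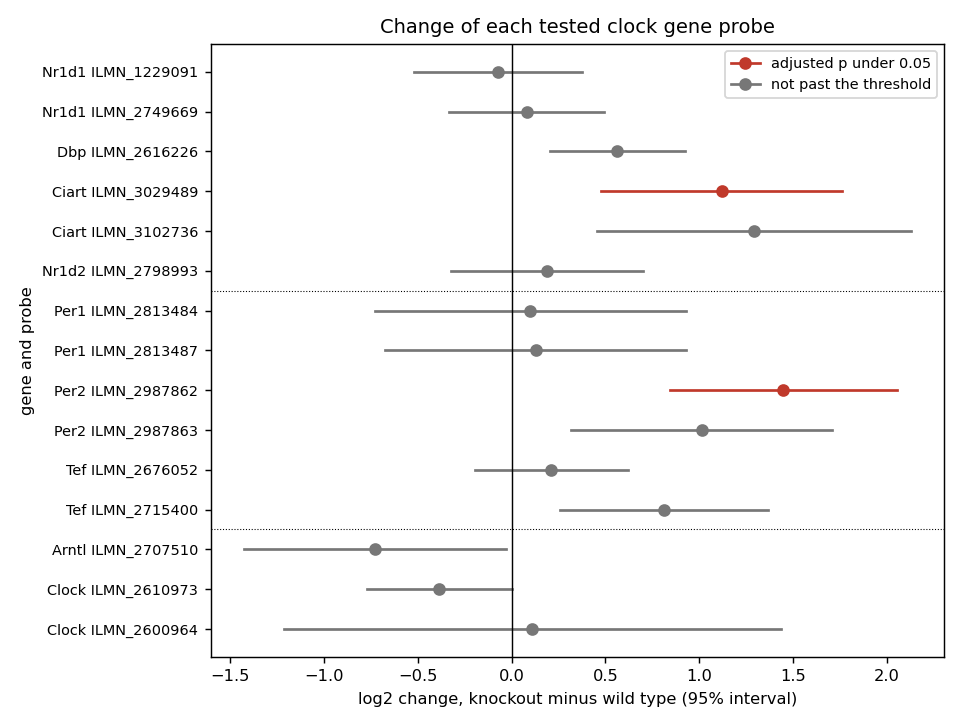
Log2 change, knockout minus wild type, of the 15 tested clock gene probes with its 95% interval, in the order afternoon, dusk and late-night genes from top to bottom. Changes run from -0.73 for Arntl to 1.45 for Per2 ILMN_2987862, and the 2 probes past the threshold are in red.

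Read by time of peak, 5 of 6 tested afternoon probes (4 genes) and 6 of 6 dusk probes (3 genes) had a positive log2 change, against 1 of 3 late-night probes (2 genes). Probes of the same gene are not independent. Some of the positive changes were small, as for both Per1 probes (0.10 and 0.13) and Nr1d1 ILMN_2749669 (0.08). With each array scaled to its median, which moved the median of all probes to -0.14, the changes were positive for 3 of 6 afternoon, 3 of 6 dusk and 1 of 3 late-night probes. The median log2 change was 0.38 in the afternoon group, 0.51 in the dusk group and -0.38 in the late-night group, beside 0.018 over all probes tested. The brightest tested probe of each gene was then averaged within a group after subtracting its mean over the 7 arrays, as a description without a test. The afternoon mean of 4 genes was 0.33, 0.22 and 0.22 on knockout arrays 1 to 3, against -0.31, -0.12, -0.31 and -0.03 on wild-type arrays 1 to 4. The dusk mean of 3 genes was 0.61, 0.07 and 0.33 in the knockout, against -0.64, -0.32, -0.32 and 0.28 in the wild type. The late-night mean of 2 genes was -0.07, -0.45 and -0.44 in the knockout, against 0.67, -0.0044, 0.44 and -0.15 in the wild type. The groups overlapped for the dusk and late-night means, each time through wild type 4, and did not for the afternoon mean. The late-night mean includes Arntl, which was not above background on knockout 2, knockout 3 and wild type 4.

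The wild-type arrays differed among themselves for some of the same members. Wild type 1 had the highest Arntl and Clock (ILMN_2610973) levels of its genotype, and the lowest levels for both Ciart and both Per1 probes. Wild type 4 had the lowest Arntl level and the highest levels of Dbp and of both probes each of Ciart, Per1 and Per2. Both Nr1d1 probes went the other way, highest in wild type 1 (10.38 and 8.84), and wild type 1 was above wild type 4 for both Tef probes too (by 0.14 for ILMN_2676052 and 0.36 for ILMN_2715400). Wild type 4 exceeded wild type 1 by 1.91 log2 units for Per1 ILMN_2813484 and by 1.85 for Per1 ILMN_2813487. The excess was 1.13 for Ciart ILMN_3029489 and 1.53 for Ciart ILMN_3102736. For both genes these gaps were larger than the difference between the genotypes, narrowly so for Ciart ILMN_3029489 (1.13 against 1.12). For Per2 ILMN_2987862 the gap of 0.99 was smaller than the 1.45 between the genotypes. No gap is given for Arntl, which was not above background in wild type 4.

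Among 20 other clock components, 9 were tested by the brightest probe of each gene. Of these, 0 were higher and 0 lower in the knockout (limma adjusted p of 0.0848 at the smallest). At an unadjusted p under 0.05, 1 was higher and 1 lower, beside 25.8% of all probes in either direction. Csnk1d had 5 tested probes, and its brightest stood at 0.12 (adjusted p = 0.706). A dimmer one, ILMN_2746075, stood at 0.51 (adjusted p = 0.0793), every knockout array lying above every wild-type array. Bhlhe40, an E-box repressor that CLOCK and BMAL1 induce, stood at 0.60 (95% interval 0.16 to 1.04, adjusted p = 0.0906). Btrc, an F-box protein that marks PER for breakdown, stood at -0.44 (adjusted p = 0.0848), every knockout array lying below every wild-type array. The log2 changes of the kinase Gsk3b (-0.34, adjusted p = 0.257), of the D-box repressor Nfil3 (0.33, adjusted p = 0.259), of Timeless (-0.23, adjusted p = 0.458) and of Rora, an activator of Arntl (-0.18, adjusted p = 0.603), did not pass. The list's median log2 change was -0.013. Cry1, the BMAL1 partner Npas2 and 7 further components were below the detection filter, and 2 had no named probe.

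Of 8 output genes of the clock, 4 were tested and 0 passed in either direction, also at an unadjusted p under 0.05, by the brightest probe of each gene. Their median log2 change was 0.09, with Herpud1 at 0.32 (limma adjusted p = 0.361), Tsc22d3 at 0.24 (adjusted p = 0.569), Usp2 at -0.16 (adjusted p = 0.775) and Nampt at -0.06 (adjusted p = 0.88). A dimmer Tsc22d3 probe, ILMN_2701664, stood at 0.72 (unadjusted p = 0.0397 in the limma fit, adjusted p = 0.171). Usp2 encodes a deubiquitinase that is rhythmic in most tissues, and its 95% interval of -0.83 to 0.51 spans both directions.

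Per1 and Per2 can also be induced outside the loop, by glucocorticoids and as immediate-early genes, so both programmes were counted. Of 12 glucocorticoid-induced genes, 10 were tested by the brightest probe of each gene. Of these, 1 was higher and 1 lower, beside 3.97% higher and 4.91% lower of all probes, and the median log2 change was 0.15. Pdk4, a kinase that restrains pyruvate oxidation, rose by 0.71 (limma adjusted p = 0.028), and Dusp1, a phosphatase that is also an immediate-early gene, fell by 1.01 (adjusted p = 0.00723). The Pdk4 call was lost under 6 alternatives: median scaling, the replicate block, and without knockout 1, 2 or 3 or wild type 3. Tsc22d3 stands in this list and among the outputs. Sgk1 (-0.73, adjusted p = 0.0601) and Cdkn1a (0.78, adjusted p = 0.139) did not pass. Dimmer Cdkn1a probes did not pass either. ILMN_2846776 stood at 0.97 (adjusted p = 0.0519), every knockout array lying above every wild-type array, and ILMN_2846775 at 0.64 (adjusted p = 0.253).

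Of 14 immediate-early genes, 11 were tested. By the brightest probe of each gene, 7 were lower and 0 higher in the knockout (4.91% and 3.97% of all probes), and the median log2 change was -0.9995. The 7 include Fosb, which met the filter only through the wild-type arrays. Over probes detected on all 7 arrays, 6 were lower. Klf4 did not pass by its brightest probe (limma adjusted p = 0.11). Its dimmer probes ILMN_1241903 (-1.05, adjusted p = 0.0456) and ILMN_1221264 (-1.13, adjusted p = 0.0309) did. The log2 change was -3.71 for Egr1 (limma adjusted p = 0.000103), -2.76 for Fos (adjusted p = 0.00204) and -2.35 for Egr2 (adjusted p = 0.00142), all transcription factors switched on within minutes of a stimulus. Fosb was detected on 0 knockout arrays. With each undetected array raised to the lowest level of a detected probe on it, Fosb was at least 1.57-fold lower, a bound that was not tested. Its limma adjusted p of 0.00725 came from the levels without that step, undetected ones included. Per2 ILMN_2987862 was higher in the knockout by 1.45 on the log2 scale, and a link between its level and this list was not tested.

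**Figure D4:**
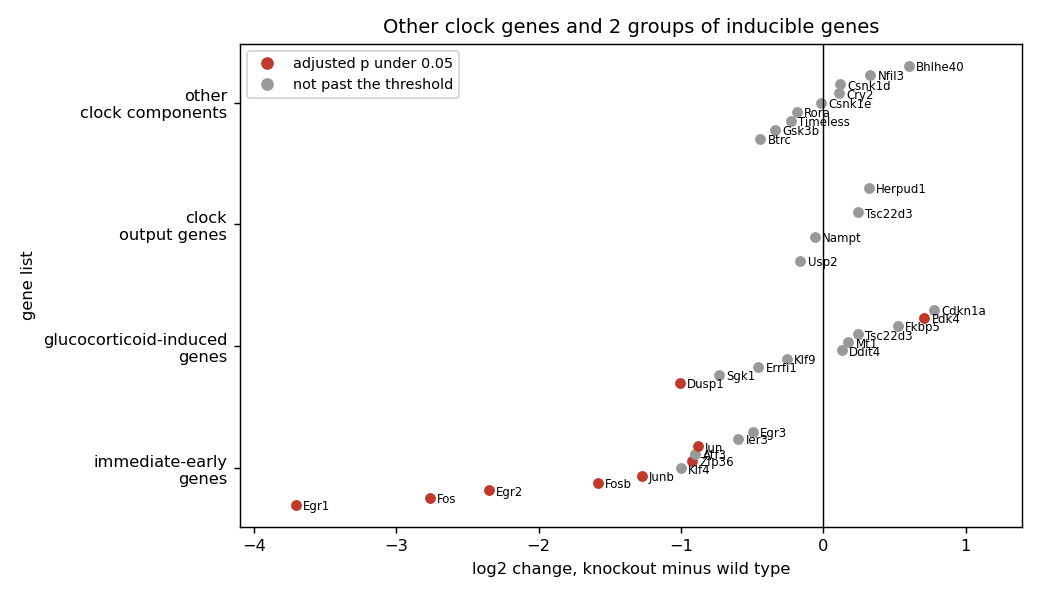
Log2 change, knockout minus wild type, of the tested genes in 4 lists (other clock components, clock outputs, glucocorticoid-induced and immediate-early genes), 1 probe per gene, with genes past the threshold in red. No other clock component or output passes, 7 of 11 immediate-early genes are lower, and the point for Fosb rests on undetected knockout levels.

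Markers of other lung cells moved with genotype as well. Of 7 tested endothelial markers 6 were lower and 0 higher, beside 4.91% lower and 3.97% higher of all probes. The 6 include Calcrl, detected on 1 knockout array and 4 wild-type arrays, so its change includes levels not above background. The mean level of the 7 markers, centred over the 7 arrays, ran from -0.90 to -0.48 in the knockout and from 0.40 to 0.72 in the wild type. Of 8 fibroblast and smooth muscle markers 4 were lower (-0.54 to -0.27 in the knockout, 0.29 to 0.37 in the wild type), of 5 tested leukocyte markers 1 was lower (-0.39 to -0.27 and 0.05 to 0.53), and of 6 tested epithelial markers 1 was higher (0.11 to 0.14 and -0.26 to 0.03). Among the defining markers, the endothelial gene Erg and the leukocyte gene Ptprc were below the detection filter and were not tested. The part of these markers in the clock gene levels was not tested. In whole lung, fewer cells of a type and less RNA per cell cannot be told apart.

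By the root mean square difference of centred log2 levels over the 7 arrays, the 5 of 8528 ranked genes most like Dbp were Bcl2l13 (0.077), Serf2 (0.083), Zfp219 (0.086), Knop1 (0.087) and Relb (0.092), where the median gene differed by 0.396. The 5 most like Arntl were Slco4a1 (0.186), Fut8 (0.204), Ppp1r3c (0.209), Zfp810 (0.211) and Mzt1 (0.222), against a median of 0.621. Likeness to Arntl rests in part on levels not above background, on knockout 2, knockout 3 and wild type 4. Members were left out of the ranking, and none of the other clock components or outputs was among these 10 genes.

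**Figure D5:**
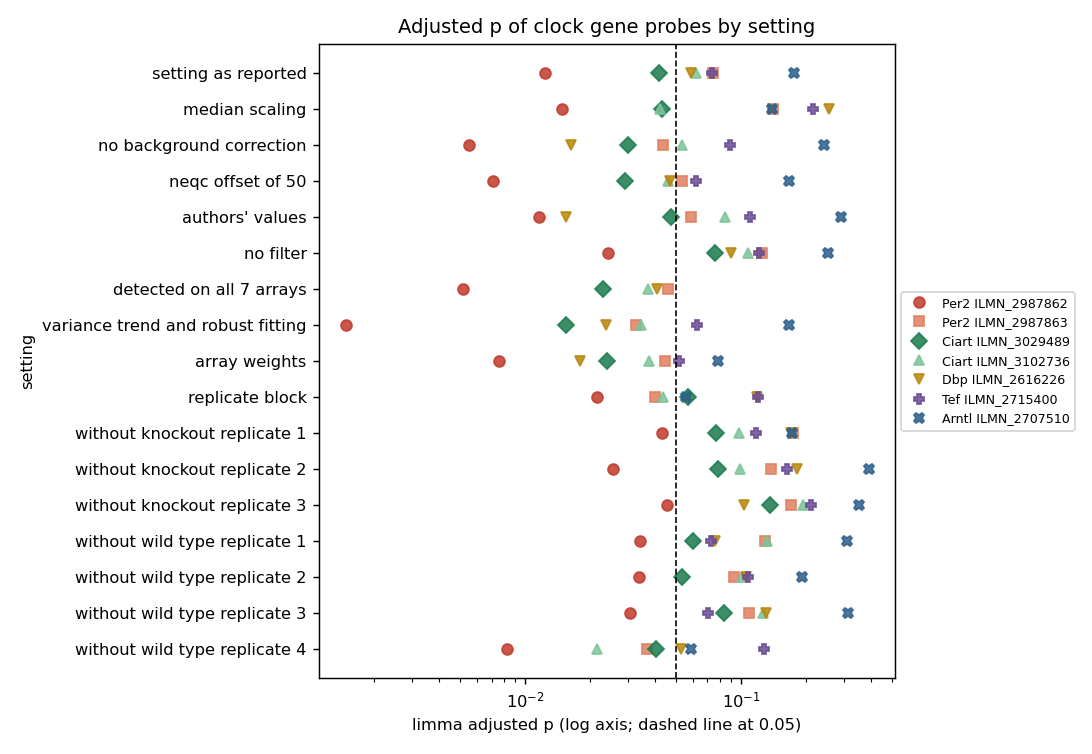
Limma adjusted p (log axis) of 7 clock gene probes under the reported setting and 16 alternatives (15 for Tef and Arntl, which were not detected on all 7 arrays), with a dashed line at 0.05. Per2 ILMN_2987862 stays left of the line throughout, between 0.00147 and 0.0457, while the probes of Ciart, Dbp and the second Per2 probe cross it and Tef and Arntl stay to its right.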

How the data were processed

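RNA from whole lung of claudin-18 knockout (3 arrays) and wild-type (4 arrays) mice was read on Illumina MouseRef-8 v2 arrays. Per the file headers, the authors' first table gives a linear mean bead intensity and a detection p-value per probe and array, and the values show no background subtraction or normalization. The second deposited table holds the authors' log2-like values, equal in median on all 7 arrays and made with lumi 1.14.0 and R 2.11.1 per the submitters' processing notes, with the transformation unstated. It served as an alternative.

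For this report neqc of limma 3.58.1 (R 4.3.3) estimated background through the detection p-values, then applied an offset of 16, quantile normalization and log2. The filter kept 11902 probes, those detected (p under 0.01) on 3 arrays or more. Genotypes were compared with lmFit and eBayes and Benjamini-Hochberg adjustment over all kept probes, with a threshold of 0.05. The number of arrays limits the precision. The fit was also run on simulated levels with independent noise for each probe, which is not a check of the results on these arrays. Probe symbols came from the platform annotation: 23978 probes had 1 symbol, 0 several and 1719 none, and symbols were updated by Entrez ID to GRCm38.p6, where 23962 matched. Figures were drawn with Python 3.11.15. Lists took the brightest kept probe per gene. Every member probe was named. Other genes were named by a rule, up to 6 other clock components and 4 of each further list, those past the threshold by size and then by adjusted p. The 5 genes nearest to Dbp and to Arntl were named too. Csnk1d and Klf4 were named outside the rule, for their dimmer probes. The members and lists were chosen with earlier results of these data known. Alternatives varied scaling, background, offset, filter, variance model, array weights, the replicate block, the authors' values and each array left out, with levels and kept probes then unchanged.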

Additional observations from a re-analysis of the deposited data

Results flagged for a closer look

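Among the wild-type levels of the 19 clock gene probes, 1 array lay apart by Dixon's ratio. For Nr1d2 ILMN_2798993, wild type 3 stood at 9.04, with the nearest wild-type array at 8.83 and the others at 8.80 and 8.79, a gap of 0.864 of the whole range, above Dixon's critical value for 4 samples. Chance flags about 1 in 20 groups of this size, and 19 were looked at. Knockout levels of the same probe ran from 8.53 to 9.55 and were not looked at in this way, as groups of 3 are too small.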

How the results depend on the processing

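Of 237 alternative values for the 15 tested clock gene probes, 193 kept their direction and their side of the threshold, 19 passed where the reported value had not, 8 no longer passed and 17 changed sign. The 8 were all of Ciart ILMN_3029489, and every sign change was of a probe with an adjusted p above 0.49. With no filter, the variance trend or detection on all 7 arrays, log2 changes equal the reported ones by construction, so no sign could change there. The replicate block gave the same log2 changes as leaving out wild type 4. Median scaling moved the median log2 change of all probes to -0.14, from 0.018, and with it Nr1d1 ILMN_2749669 to -0.12, Nr1d2 ILMN_2798993 to -0.02, Per1 ILMN_2813484 to -0.084, Per1 ILMN_2813487 to -0.078 and Tef ILMN_2676052 to -4.1e-05. Array weights gave 0.089 for Nr1d1 ILMN_1229091 and -0.044 for Per1 ILMN_2813484. With each array left out in turn, log2 changes ran from -0.21 to 0.048 for Nr1d1 ILMN_1229091, from -0.0020 to 0.20 for Nr1d1 ILMN_2749669, from -0.059 to 0.45 for Nr1d2 ILMN_2798993, from -0.23 to 0.41 for Per1 ILMN_2813484, from -0.14 to 0.48 for Per1 ILMN_2813487 and from -0.30 to 0.86 for Clock ILMN_2600964. The count of clock gene probes higher in the knockout, 2 as reported, was 4 with no background correction or an offset of 50, 1 with no filter, 5 with array weights, the variance trend or detection on all 7 arrays, and 1 to 4 with an array left out. Lower clock gene probes numbered 0 throughout. Among all probes, 472 higher became 217 with median scaling, 882 with array weights and 140 to 466 with an array left out, and 584 lower became 994 with array weights and 193 to 533 with an array left out. Among other clock components, 1 was higher with no background correction, the variance trend or array weights, and 1 was lower with no background correction, the authors' values or array weights. The range was 0 to 1 higher with an array left out. Of glucocorticoid-induced genes, 0 were higher with median scaling or the replicate block, and 0 to 1 with an array left out. Their lower count was 2 with no background correction, an offset of 50, the authors' values, detection on all 7 arrays or the variance trend, and 1 to 2 with an array left out. The cause of these changes was not tested.

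Knockout and wild-type arrays share replicate numbers 1 to 3. Deviations from the group means correlated at -0.022, -0.0044 and -0.142 for the same-numbered arrays. For arrays of different numbers they ran from -0.106 to 0.122. These values show no sign of pairing, but with so few arrays they cannot exclude it. With the replicate number as a block, wild type 4 has no partner, 3 clock gene probes passed higher, and the counts over all probes fell to 173 higher and 228 lower. Dim probes limit the reading of Per3, Arntl and part of Clock.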
